A study of Spinacia oleracea with 12 samples.

Results

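The root response to nitrogen (N) supply was read from 6 of the 12 libraries of a spinach RNA-Seq experiment, namely 3 root libraries under high N and 3 under low N. These 6 libraries were chosen by their names, in which HNR marks high N root and LNR marks low N root. Of the 25495 genes in the table, 17881 had a mean FPKM (fragments per gene, scaled to gene length and library depth) of at least 1 over the 6 libraries and were tested. The plants were of the cultivar Banjo and 6 weeks old. They received calcium nitrate at 200 ppm N (high N) or at 50 ppm N (low N), with calcium chloride added under low N to level out the calcium, so chloride supply also differed between the treatments and the parts of N and chloride cannot be told apart. Each library was described as an independent plant, and the library kit did not keep the strand of the RNA, so reads of overlapping or antisense genes cannot be told apart. The remaining 6 libraries came from leaves of the same treatments and are used for comparison alone. Some fields of the sample records conflict with the library names, since all root records carry the tissue and treatment fields of low N leaf and the LNR records are described as N replete.

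Roots take up nitrate and ammonium through membrane transporters, reduce nitrate, and build the ammonium into glutamine and glutamate. The high-affinity transporters of nitrate and ammonium are commonly repressed when N is plentiful. Phenylpropanoid products, secreted peroxidases and pathogenesis-related proteins are the usual inducible defences of roots, and cell wall synthesis accompanies root elongation.

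The tissue labels were checked against marker genes. Of 15 root markers, 13 were higher in every root library than in every leaf library. The 15 summed to 566 to 1051 FPKM in high N roots and 1091 to 1195 FPKM in low N roots, without overlap, and to 2.91 to 20.8 FPKM in leaves. High-affinity nitrate transporter 2.1, described below, is among them. Not all 15 were lower under high N. CASP-like Ni6 (Spo18520) was at 336 to 470 FPKM under high N and 127 to 236 FPKM under low N, and a peroxidase 57 gene (Spo14012) was also higher under high N. The 15 markers were taken from the published lists of N-responsive genes, so their difference between the N groups follows in part from that choice. Their part in other results was not tested. The 12 photosynthesis markers summed to 137 to 282 FPKM in high N roots, 133 to 196 FPKM in low N roots and 21917 to 31518 FPKM in leaves. One of them, TL20.3 (Spo04636), was higher in every root library, at 3.80 to 11.1 FPKM, than in every leaf library, where it was at most 3.47 FPKM. The chlorophyll a-b binding proteins among them were at 0 to 1.97 FPKM in every root library, and carbonic anhydrase, at 91.2 to 181 FPKM, made up most of the sum in roots. The root libraries held 15627994 to 18608172 fragments on genes. At this depth 3 fragments on a gene of 1 kb correspond to 0.161 to 0.192 FPKM, a floor that covers counting error only.

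High N replicate 3 stood apart from its group. Its log2(FPKM + 1) values correlated across genes with low N replicates 1 (r = 0.965) and 3 (r = 0.960) more closely than with high N replicates 1 (r = 0.958) and 2 (r = 0.946). Genes are not independent replicates, so these correlations are a description. In 61.7% of the genes called higher and 71.8% of those called lower it was the high N library nearest to the low N values. Low N replicate 1 was the low N library nearest to high N in 59.9% and 60.1% of them. No pair of replicates agreed within sampling noise (chi-square per degree of freedom 29.0 to 94.9), so each library counts as 1 sample.

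Under high N 828 root genes were higher and 1165 were lower at p below 0.05 in limma, together 1993 genes or 11.1% of those tested (4.63% higher and 6.52% lower). Across the tested genes the median log2 difference was -0.05. Most differences were moderate. Of the called genes, 303 rose and 279 fell by at least 1 on the log2 scale, 58 rose and 22 fell by at least 2, and 10 rose and 1 fell by at least 3. The share of higher genes among the calls was 41.5% with FPKM as deposited, 52.6% with median-of-ratios scaling and 51.5% with quantile normalization, so which direction held more genes depended on the scaling. In 2795 genes, 15.6% of those tested, all 3 high N libraries lay on one side of all 3 low N libraries, and 1571 of the called genes were among these. After Benjamini-Hochberg adjustment of the limma p-values 5 genes, or 0.028%, stayed below 0.05. An exact permutation test of 3 against 3 libraries cannot go below p = 0.10.

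The number of called genes depended on single libraries. It was 1185 without high N replicate 1, 977 without high N replicate 2, 2655 without high N replicate 3, 3110 without low N replicate 1, 1439 without low N replicate 2 and 1360 without low N replicate 3. In each of these fits, every called gene that was still tested kept its direction, which follows in part from calling it with all 6 libraries. In the accounts of single genes and lists, a gene rose or fell where its unadjusted limma p was below 0.05. The adjusted p beside a gene is its limma p after Benjamini-Hochberg adjustment over all 17881 genes, and it lay above 0.05 in 186 of the 191 genes that the rule for named genes picks. Of these 191, 180 had groups that did not overlap, which the rule asked of most of them. A lack of overlap in a named gene is therefore a description and no added evidence. The p-values set each difference against the spread among the 3 plants of each group, which limma estimates in part from other genes. They rest on these 6 plants alone. Where a gene is said to miss the threshold without a library, its unadjusted p was then 0.05 or more, and the log2 difference of that fit is given in parentheses. Of the 191, 121 were below 0.05 in all 6 such fits. A gene described below without such a remark is one of these or another listed gene that stayed below 0.05 in all 6. Counts of 2 or fewer members of a list moved by at most 2 in these fits, and for larger counts the range is given where a fit moved them by over 1.5 times.

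**Figure D1:**
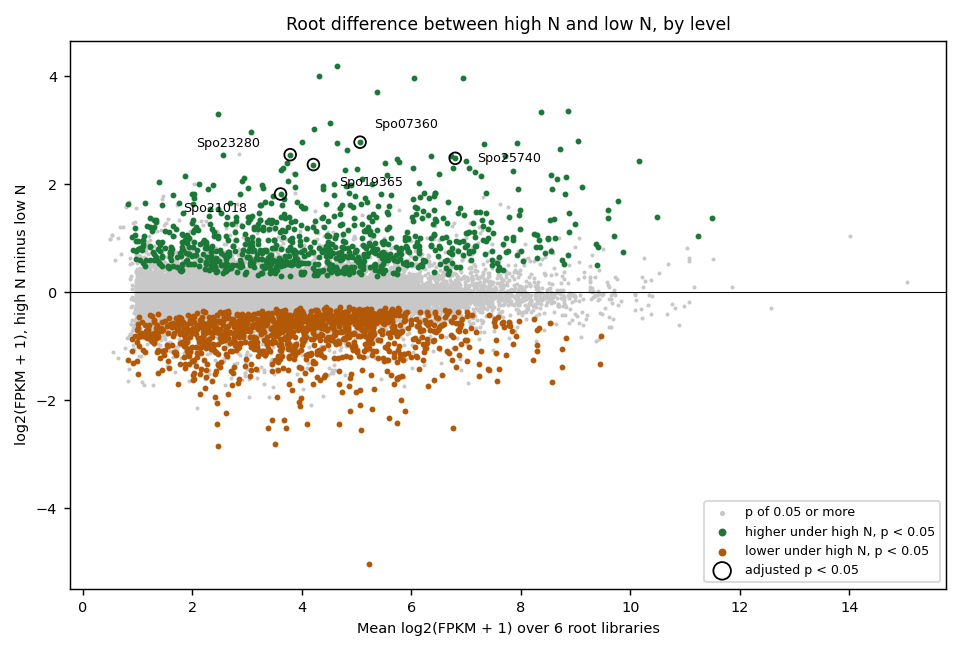
The log2 difference between high N and low N roots (vertical axis, log2(FPKM + 1)) is plotted against the mean level over 6 root libraries (horizontal axis) for 17881 genes, with genes at p below 0.05 in colour. The 5 genes with an adjusted p below 0.05 are circled, and all of them lie above 0.

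The deposited table holds identifiers without names. Names were taken from the published lists of N-responsive genes. These lists cover 1055 genes from root and a further 699 from leaf alone. Of the 1993 called genes 967 (48.5%) carry a name. The root-listed genes were picked in these same libraries. Counts over them describe how the response falls across functions and are not independent evidence of it. Of 981 root-listed genes tested here 481 rose and 432 fell. Genes known only from the leaf lists are those the root lists left out, so a low count among them follows in part from the choice. Of 560 tested, 13 rose and 41 fell (9.64%, against 11.1% of all genes), with a median log2 difference of -0.08. By name, 825 genes were sorted into 38 lists of function. Among the tested members of each list given below, those from leaf lists alone do not outnumber the root-listed ones. Where a list has a leaf median, it covers the members tested in both tissues.

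**Figure D2:**
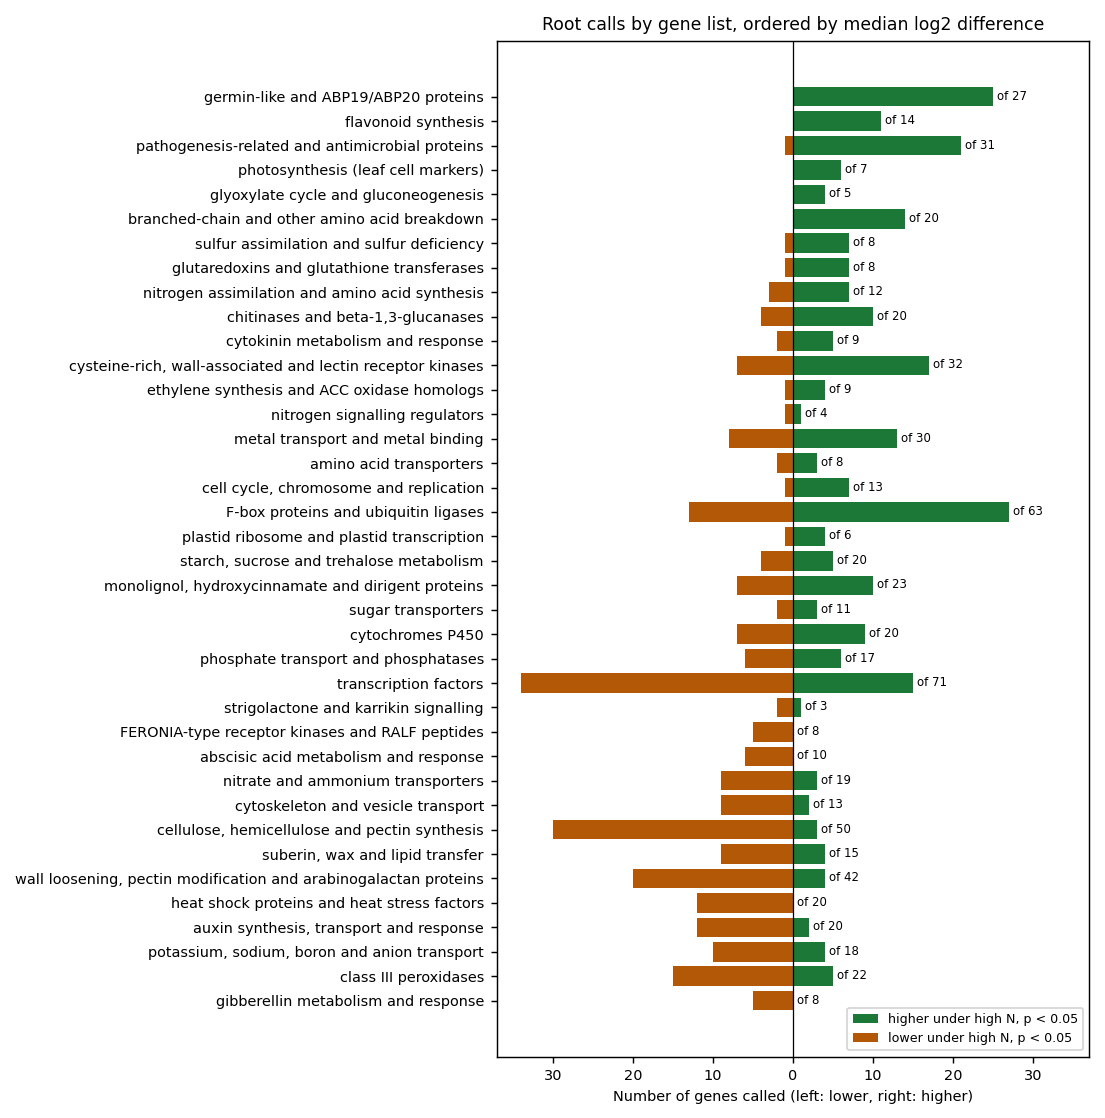
Bars give the number of members of each gene list with p below 0.05 in root, higher under high N to the right and lower to the left, beside the number tested. Lists are ordered by their median log2 difference, from gibberellin genes and peroxidases at the bottom to flavonoid and germin-like genes at the top.

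All 5 genes that passed the adjusted threshold were higher under high N. Peroxidase 2 (Spo07360), a secreted class III peroxidase, was at 85.8, 96.1 and 78.7 FPKM under high N and 16.3, 11.3 and 8.73 FPKM under low N, a difference of 2.78 ± 0.22 (SE, adjusted p = 0.0379). A cinnamoyl-CoA reductase-like gene (Spo23280, SNL6), whose relative in rice takes part in disease resistance, was at 28.3, 29.8 and 40.1 FPKM under high N and 5.69, 4.31 and 4.23 FPKM under low N, a difference of 2.55 ± 0.18 (SE, adjusted p = 0.0379). Chalcone synthase 2 (Spo25740), which makes the first product of the flavonoid pathway, was at 239.6, 242 and 312 FPKM under high N and 46.4, 59.3 and 35.8 FPKM under low N, a difference of 2.48 ± 0.22 (SE, adjusted p = 0.0453). The 3 high N plants were close to each other in all of these, and the groups did not overlap. RING-H2 finger protein ATL11 (Spo19365), of a family of membrane ubiquitin ligases, rose by 2.36 ± 0.21 (SE, adjusted p = 0.0453) from 6.29, 8.57 and 6.79 FPKM under low N to 42, 31.5 and 52.2 FPKM. NAC transcription factor 29 (Spo21018) rose by 1.82 ± 0.15 (SE, adjusted p = 0.0379), from 5.91, 5.3 and 5.31 FPKM to 18.6, 23.8 and 23.9 FPKM. The next number, Spo21019, carries the same name and rose by 3.30 ± 0.59 (SE, adjusted p = 0.208), being at 12.2, 18.6 and 19.4 FPKM under high N and 0, 3.79 and 0.149 FPKM under low N. Genes that share a name and adjoining numbers may share reads, and the counting may have split fragments between them. The same holds for the pairs named below.

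The primers that the study used for RT-qPCR show which transcripts were followed there. They are printed in lower case from 5′ to 3′ for 3 genes described here, the NAC factor, the glutamine amidotransferase-like gene that rose furthest and the nitrate transporter that fell furthest.
Spo21019 forward: ggaggctaagcatcaacctatc
Spo21019 reverse: tctgttctctcctctgctctta
Spo00216 forward: cgtggatctcaggtgcttaat
Spo00216 reverse: ccactctttggtcttcaggtatc
Spo09968 forward: aaagaagggtgaggttgctaaa
Spo09968 reverse: gtagccatagaggagcacaaag

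Among nitrate and ammonium transporters, 9 of 19 tested members fell under high N, 3 rose and 7 did not pass the test, with a median log2 difference of -0.62. With each library left out, 3 to 11 (5 without high N replicate 1 and 3 without low N replicate 2) fell. High-affinity nitrate transporter 2.1 (Spo09968) was at 1.28, 0.198 and 101 FPKM under high N and 208, 272 and 167 FPKM under low N. High N replicates 1 and 2 were near 0 and replicate 3 was not, but all 3 lay below the low N plants. Its difference of -5.02 ± 1.54 (SE, adjusted p = 0.374) was the largest fall among named genes and missed the threshold without low N replicate 2 (-4.84). Ammonium transporter 1 member 2 (Spo24677) was also lowest in high N replicates 1 and 2, with 4.37, 5.11 and 39.7 FPKM under high N and 59.7, 75.6 and 45.3 FPKM under low N. Its difference was -2.44 ± 0.75 (SE, adjusted p = 0.373), and it missed the threshold without low N replicate 2 (-2.27). NRT1/PTR family 6.2 (Spo16897), of the low-affinity nitrate and peptide transporter family, was at 0.568, 0.325 and 2.01 FPKM under high N and 4.85, 4.63 and 5.59 FPKM under low N, a difference of -1.71 ± 0.32 (SE, adjusted p = 0.228). Against this direction, ammonium transporter 1 member 3 (Spo21031) rose by 0.84 ± 0.22 (SE, adjusted p = 0.348) from 1.94, 1.39 and 1.59 FPKM to 2.82, 3.47 and 5.1 FPKM. A further NRT1/PTR family 6.2 gene (Spo05548) is reported in the paper as upregulated in high N roots, opposite to Spo16897.

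Genes that assimilate N and make amino acids went mostly the other way, with 7 of 12 tested members higher, 3 lower and a median of 0.71. When single libraries were left out, 4 to 7 (4 without high N replicate 1, 4 without high N replicate 2, 4 without low N replicate 2 and 4 without low N replicate 3) rose and 0 to 3 (0 without high N replicate 1, 0 without high N replicate 2, 0 without low N replicate 2 and 1 without low N replicate 3) fell. GAT1_2.1 (Spo00216), named for a glutamine amidotransferase domain, was at 134, 251 and 34.5 FPKM under high N and 6.34, 5.62 and 3.05 FPKM under low N, a rise of 4.20 ± 0.68 (SE, adjusted p = 0.171) and the largest of any named gene. High N replicate 3 was again the lowest of its group but lay above every low N plant. Asparagine synthetase (Spo08792), which moves the amide of glutamine to aspartate, was at 8.6, 24.3 and 8.32 FPKM under high N and 6.03, 2.64 and 3.9 FPKM under low N, a rise of 1.39 ± 0.44 (SE, adjusted p = 0.379) that missed the threshold without low N replicate 2 (1.16). Histidine biosynthesis protein hisIE (Spo08186) rose by 0.87 ± 0.26 (SE, adjusted p = 0.368) and aspartate aminotransferase 3 (Spo25675) by 0.67 ± 0.19 (SE, adjusted p = 0.362). A glutamine synthetase (Spo01186), the enzyme that fixes ammonium, had an opposite difference of -0.97 ± 0.40 (SE, adjusted p = 0.436), with 157, 164 and 435 FPKM under high N and 496, 445 and 387 FPKM under low N. The groups overlapped in it, and it missed the threshold without high N replicate 1 (-0.72), without high N replicate 2 (-0.75), without low N replicate 1 (-0.89), without low N replicate 2 (-0.97) and without low N replicate 3 (-1.07).

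Genes for the breakdown of leucine, isoleucine, valine and other amino acids rose together under high N. Of 20 tested members 14 rose and 0 fell, with a median of 0.87. With each library left out, 9 to 15 (9 without low N replicate 2) rose. Isovaleryl-CoA dehydrogenase (Spo22584), a mitochondrial enzyme of leucine breakdown, was at 149.6, 313 and 81.6 FPKM under high N and 60.2, 27.3 and 55 FPKM under low N, a rise of 1.78 ± 0.52 (SE, adjusted p = 0.362). The alpha subunit of methylcrotonoyl-CoA carboxylase (Spo02348), 1 step further on in the same pathway, was at 135, 247 and 87.9 FPKM under high N and 52.6, 34.3 and 64.8 FPKM under low N, a rise of 1.53 ± 0.40 (SE, adjusted p = 0.348). High N replicate 2 was the highest library in both genes, and the groups did not overlap. In leaf the same list had a median of 1.49, and the response of 3 of 20 genes differed between the tissues at an interaction p below 0.05, where 6.75% of all genes did. Amino acid transporters were split, with 3 of 8 higher, a count of 1 to 4 (1 without high N replicate 1) when single libraries were left out, and 2 lower. The vacuolar-type transporter AVT6C (Spo00361) rose by 0.78 ± 0.25 (SE, adjusted p = 0.384) but missed the threshold without high N replicate 1 (0.74). The permease BAT1 homolog (Spo26784), whose Arabidopsis relative is bidirectional, fell by 1.06 ± 0.25 (SE, adjusted p = 0.303).

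Sulfur genes were higher in root under high N, with 7 of 8 tested members up, 1 down and a median of 0.86. When single libraries were left out, 5 to 7 rose. SULFUR DEFICIENCY-INDUCED 1 (Spo04503), known in Arabidopsis as a gene induced by lack of sulfur, was at 14.1, 11.6 and 6.7 FPKM under high N and 3.52, 2.45 and 2.04 FPKM under low N, a rise of 1.65 ± 0.29 (SE, adjusted p = 0.197). RESPONSE TO LOW SULFUR 4 (Spo22402), of another small family induced by lack of sulfur, was at 199, 115 and 83.9 FPKM under high N and 39.7, 40.2 and 49.4 FPKM under low N, a rise of 1.51 ± 0.31 (SE, adjusted p = 0.276). The 5'-adenylylsulfate reductase (Spo13793), the step that commits activated sulfate to reduction, rose by 1.31 ± 0.28 (SE, adjusted p = 0.293). The exception stands 1 step earlier in the pathway. ATP sulfurylase 1 (Spo11735), which activates sulfate, was at 257, 208 and 347 FPKM under high N and 869.9, 468 and 804 FPKM under low N and fell by 1.38 ± 0.31 (SE, adjusted p = 0.294), with no overlap. In leaf the median of the same 8 genes was -0.59, opposite in sign to root, and the response of 3 of 8 differed between the tissues at an interaction p below 0.05.

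Phosphate genes were divided evenly, with 6 of 17 tested members higher, 6 lower and a median of -0.15 that turned to 0.04 without high N replicate 2 and 0.05 without low N replicate 3. The plasma membrane phosphate transporters of the PHT1 family did not move as 1 group. Transporter 1-1 (Spo19049) was at 2.29, 2.25 and 3.72 FPKM under high N and 6.61, 8.23 and 9.57 FPKM under low N, a difference of -1.29 ± 0.21 (SE, adjusted p = 0.173), and transporter 1-3 (Spo19054) fell by 0.87 ± 0.25 (SE, adjusted p = 0.362). Transporter 1-7 (Spo19056) was at 51.8, 27.7 and 46.1 FPKM under high N and 24.4, 3.67 and 9.15 FPKM under low N, a rise of 1.96 ± 0.59 (SE, adjusted p = 0.367). The 3 numbers lie close together, so shared reads bear on all of them. Purple acid phosphatase 2 (Spo22532), of a family that frees phosphate from organic compounds, fell by 0.76 ± 0.20 (SE, adjusted p = 0.355), while acid phosphatase 1 (Spo04080) rose by 0.98 ± 0.18 (SE, adjusted p = 0.215) from 42.6, 35.6 and 50.8 FPKM to 73.4, 87 and 95.7 FPKM.

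Transport and binding of metals moved in both directions, with 13 of 30 tested members higher, 8 lower and a median of 0.58. Fits without single libraries gave 7 to 14 (7 without high N replicate 1 and 8 without high N replicate 2) higher and 1 to 8 (2 without high N replicate 1, 3 without high N replicate 2, 5 without low N replicate 2 and 1 without low N replicate 3) lower. A vacuolar iron transporter homolog (Spo19572) was at 53.6, 91 and 57.1 FPKM under high N and 28.6, 25 and 20 FPKM under low N, a rise of 1.39 ± 0.24 (SE, adjusted p = 0.188). Zinc transporter 1 (Spo09173) rose by 1.14 ± 0.26 (SE, adjusted p = 0.294), and ferric reduction oxidase 4 (Spo04400), of a family that reduces ferric iron at the root surface or on inner membranes, rose by 1.37 ± 0.41 (SE, adjusted p = 0.368). Members also moved the other way, as both Nramp5 genes, named for a manganese and cadmium transporter of rice roots, had lower values under high N. Spo17462 was at 27.5, 44.5 and 82.3 FPKM under high N and 87.4, 94.4 and 176 FPKM under low N, a difference of -1.26 ± 0.43 (SE, adjusted p = 0.407), and missed the threshold without high N replicate 1 (-0.89), without high N replicate 2 (-1.23) and without low N replicate 3 (-0.95). Spo24116 had a difference of -1.14 ± 0.39 (SE, adjusted p = 0.408) and missed the threshold without high N replicate 1 (-0.80) and without low N replicate 3 (-0.82). The factor ORG2 (Spo30029), which belongs to a bHLH group active in iron deficiency in Arabidopsis, fell by 1.33 ± 0.43 (SE, adjusted p = 0.386) and missed the threshold without low N replicate 3 (-1.13).

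Potassium, sodium, boron and anion transport leaned to lower values, with 10 of 18 tested members lower, 4 higher and a median of -0.81. The higher members numbered 2 to 4 (2 without high N replicate 1) without single libraries. HKT proteins carry sodium and potassium across membranes. HKT1 (Spo08426) was at 10.8, 4.25 and 5.38 FPKM under high N and 45.1, 23.5 and 54.9 FPKM under low N, a difference of -2.44 ± 0.40 (SE, adjusted p = 0.171), and HKT7 (Spo08425) fell by 2.51 ± 0.40 (SE, adjusted p = 0.171). An HKT6 gene (Spo11782) was at 5.12, 1.4 and 4.42 FPKM under high N and 31.6, 16.9 and 45.6 FPKM under low N and fell by 2.81 ± 0.46 (SE, adjusted p = 0.171), whereas a further gene of that name (Spo07177) was at 17.2, 14 and 20.3 FPKM under high N and 5.15, 6.55 and 2.83 FPKM under low N and rose by 1.67 ± 0.27 (SE, adjusted p = 0.171). None of these 4 overlapped between the groups, which the rule that named them requires. SLAH3 (Spo15968), an anion channel that passes nitrate and chloride in Arabidopsis, rose by 1.098 ± 0.24 (SE, adjusted p = 0.293), from 115, 79.4 and 73.1 FPKM to 148, 213 and 213 FPKM. In 9 of 18 members the response differed between root and leaf at an interaction p below 0.05, and 8 of the 18 also reached a mean FPKM of 1 in leaf.

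Flavonoid synthesis was among the lists with the largest rise. Of 14 tested members 11 rose and 0 fell, with a median of 1.51. From 8 to 11 rose with each library left out. Chalcone isomerase (Spo18570), which closes the flavonoid ring, was at 546, 781 and 611 FPKM under high N and 96.1, 129.8 and 63.6 FPKM under low N, a rise of 2.77 ± 0.29 (SE, adjusted p = 0.0679). Another chalcone synthase (Spo27151) was at 429, 484 and 603 FPKM under high N and 103, 107 and 57.4 FPKM under low N, a rise of 2.53 ± 0.28 (SE, adjusted p = 0.074). All high N plants, replicate 3 included, lay well above the low N plants in these genes. The median of the list in leaf was -0.69 over the 9 members tested in both tissues. The difference between root and leaf was tested gene by gene and had an interaction p below 0.05 in 10 of 14 members. For chalcone isomerase the root difference exceeded the leaf difference by 3.80 ± 0.45 (SE, adjusted p = 0.0167).

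Genes for monolignols, hydroxycinnamates and dirigent proteins, which supply and couple the units of lignin and lignans, were split. Here 10 of 23 tested members rose and 7 fell. In fits without single libraries 6 to 10 (6 without high N replicate 1 and 6 without low N replicate 3) rose and 4 to 9 (4 without high N replicate 2) fell. The median of 0.14 had no firm sign, since it was -0.15 with a minimum mean FPKM of 5, -0.04 without high N replicate 3 and -0.003 without low N replicate 3. Both named O-methyltransferases rose, a caffeoyl-CoA type (Spo23090) by 2.02 ± 0.29 (SE, adjusted p = 0.123), from 52.9, 32.7 and 23 FPKM to 136, 136 and 154 FPKM, and a caffeic acid type (Spo24439) by 1.73 ± 0.43 (SE, adjusted p = 0.328), from 11.3, 3.36 and 5.35 FPKM to 14.4, 23.8 and 31.4 FPKM. The dirigent proteins named by the rule fell. Dirigent protein 15 (Spo15449) was at 13.6, 10.6 and 12.6 FPKM under high N and 20.3, 29.2 and 34 FPKM under low N, a difference of -1.09 ± 0.21 (SE, adjusted p = 0.232), and the dirigent protein 23 genes had differences of -0.85 ± 0.21 (SE, adjusted p = 0.333) for Spo16063 and -0.67 ± 0.19 (SE, adjusted p = 0.362) for Spo20518. A cytochrome P450 gene (Spo09185), of a family known for isoflavonoid hydroxylation in legumes, was at 67.7, 78.6 and 84.9 FPKM under high N and 23.1, 21.2 and 12.4 FPKM under low N, a rise of 2.01 ± 0.24 (SE, adjusted p = 0.0849).

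**Figure D3:**
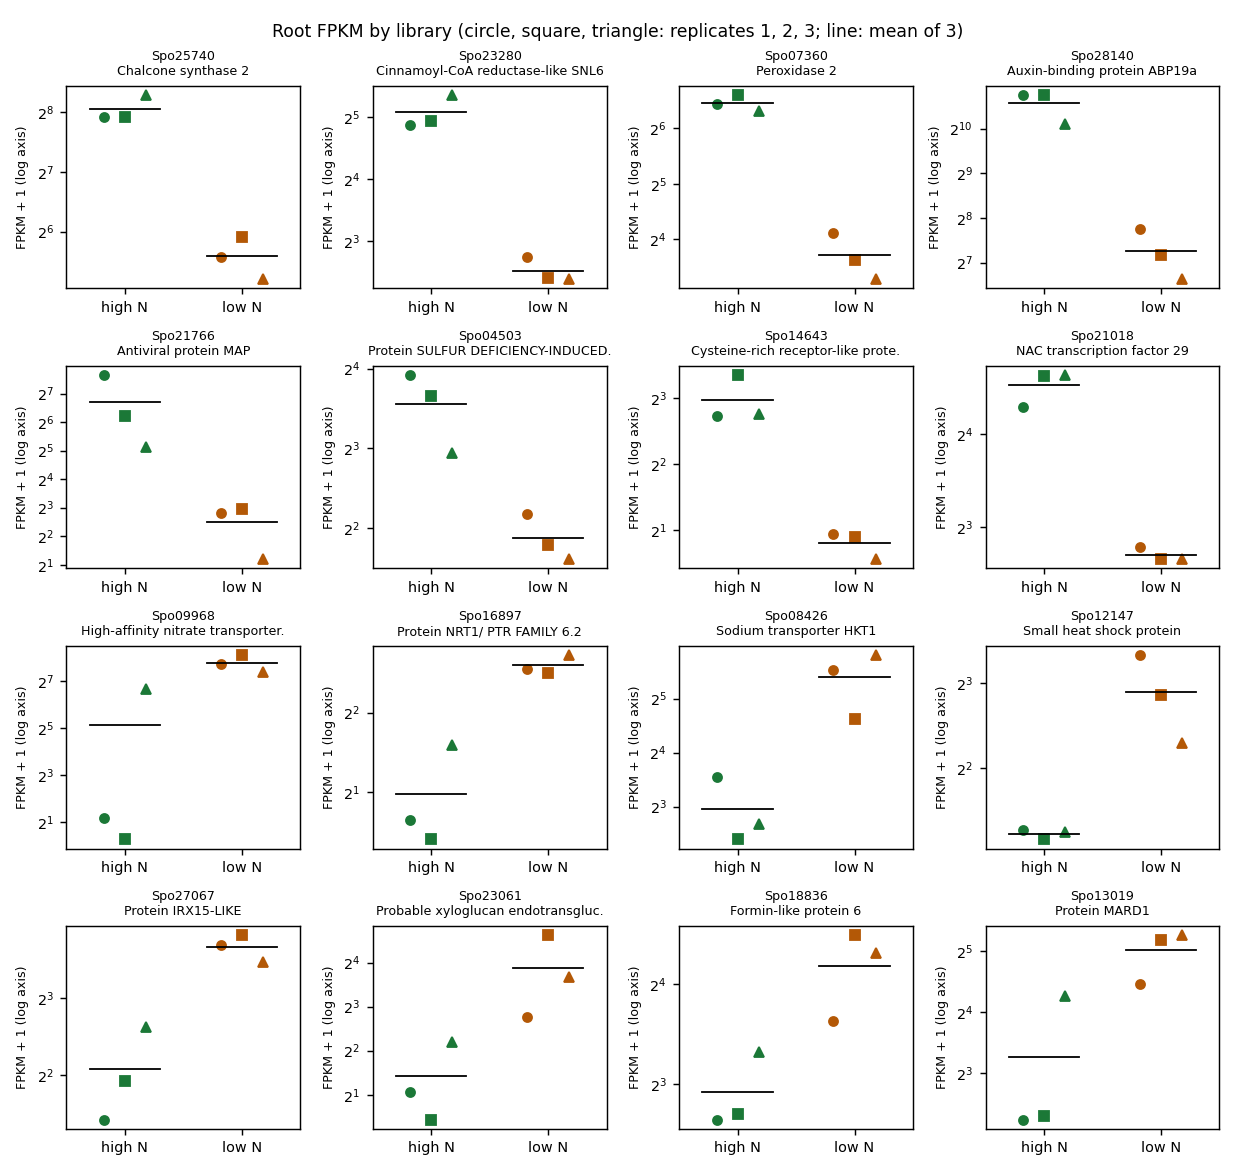
FPKM + 1 on a log axis is shown for 16 genes in 3 high N and 3 low N root libraries, with circles, squares and triangles for replicates 1, 2 and 3 and a line at the mean of 3. Chalcone synthase 2 separates the groups widely, whereas in nitrate transporter 2.1 and MARD1 high N replicate 3 lies next to the low N values.

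Secreted peroxidases, which cross-link or loosen walls with hydrogen peroxide, were mostly lower, against the direction of Peroxidase 2. Of 22 tested members 15 fell and 5 rose, with a median of -0.83 and a range of -1.94 to 2.78. With each library left out, 7 to 14 (7 without high N replicate 2 and 8 without low N replicate 2) fell. Peroxidase 5 (Spo07361), the next number after Peroxidase 2, was at 67.8, 62.5 and 78.9 FPKM under high N and 16.3, 11.1 and 6.08 FPKM under low N and rose by 2.63 ± 0.32 (SE, adjusted p = 0.0849). Cationic peroxidase 1 (Spo21312) rose by 1.81 ± 0.33 (SE, adjusted p = 0.215). Peroxidase 57 (Spo12327) was at 2.56, 0.783 and 2.15 FPKM under high N and 8.23, 14 and 7.18 FPKM under low N, a difference of -1.94 ± 0.34 (SE, adjusted p = 0.197), and peroxidase 4 (Spo00394) was at 9.91, 6.57 and 10.6 FPKM under high N and 17, 50.2 and 22.6 FPKM under low N, a difference of -1.503 ± 0.39 (SE, adjusted p = 0.348). Peroxidase 27 (Spo09292), a more abundant transcript, was at 124, 58 and 148 FPKM under high N and 171, 400.5 and 321 FPKM under low N. Its difference of -1.45 ± 0.44 (SE, adjusted p = 0.368) missed the threshold without low N replicate 2 (-1.19). Low N replicate 2 was the highest library for these 3 genes (Spo00394, Spo09292 and Spo12327). Other genes named peroxidase 57 did not all go the same way. Spo13100 and Spo24491 were also lower under high N, and Spo26340 overlapped between the groups. Spo14012 was higher, at 2.11 to 4.10 FPKM under high N and 0.465 to 1.33 FPKM under low N.

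Germin-like and ABP19/ABP20 proteins, small secreted proteins of the cupin fold, held the highest median of all 38 lists, 1.99. In this list 25 of 27 tested members rose and 0 fell, and 22 to 26 rose with each library left out. ABP20 (Spo25134) was at 751, 451 and 340.5 FPKM under high N and 86.3, 12.5 and 25 FPKM under low N, a rise of 3.96 ± 0.67 (SE, adjusted p = 0.179). An ABP19a gene (Spo28140) was at 1729, 1715 and 1099 FPKM under high N and 216, 143 and 98 FPKM under low N, a rise of 3.35 ± 0.34 (SE, adjusted p = 0.0656), or 9.94-fold between the mean FPKM values. The ABP20 gene Spo10209 rose by 3.72 ± 0.51 (SE, adjusted p = 0.115) and the ABP19a gene Spo10205 by 2.80 ± 0.44 (SE, adjusted p = 0.171). All 4 stood far apart between the groups. Many members share a name, so fragments may be divided among near-identical copies and the count of genes is uncertain. In 21 of 25 the response differed from that of leaf at an interaction p below 0.05. Only 4 of the 27 members reached a mean FPKM of 1 in leaf. For most of them the interaction therefore reflects the root difference beside low leaf values and does not describe a leaf response.

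Pathogenesis-related and antimicrobial proteins also rose, 21 of 31 tested members against 1 that fell, with a median of 1.21 and 17 to 20 higher with each library left out. Antiviral protein MAP (Spo21766), of the ribosome-inactivating proteins, was at 199.6, 73.5 and 33.6 FPKM under high N and 5.96, 6.74 and 1.28 FPKM under low N, a rise of 4.01 ± 0.72 (SE, adjusted p = 0.208). A pair of proteinase inhibitors with adjoining numbers had high levels. Spo02312 was at 3105, 3779.6 and 1612 FPKM under high N and 855, 367 and 379 FPKM under low N, a rise of 2.43 ± 0.46 (SE, adjusted p = 0.23), and Spo02311 rose by 3.34 ± 0.65 (SE, adjusted p = 0.239). The high N plants were widely spread in these genes, without overlap with the low N plants. The single member that fell was Snakin-2 (Spo15429), an antimicrobial peptide of the gibberellin-regulated family, with 8.88, 8.18 and 8.44 FPKM under high N and 27.6, 23.1 and 14.9 FPKM under low N and a difference of -1.23 ± 0.22 (SE, adjusted p = 0.215). Defensin-like AX1 (Spo23287), a peptide first found in sugar beet, had a large difference of 2.52 ± 0.92 (SE, adjusted p = 0.416) but overlapped between groups, and it missed the threshold without high N replicate 1 (1.78), without high N replicate 2 (2.497), without low N replicate 2 (1.79) and without low N replicate 3 (2.57).

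Chitinases and beta-1,3-glucanases, which cut chitin and callose, were higher in 10 and lower in 4 of 20 tested members, with a median of 0.71. The lower members numbered 2 to 5 (2 without low N replicate 2) without single libraries. The chitinases named by the rule rose. Endochitinase EP3 (Spo20181) was at 1002, 968 and 614 FPKM under high N and 270.0, 185 and 149.5 FPKM under low N, 4.28-fold higher between the means and past the threshold, and the class V chitinases Spo26436 and Spo26435 rose by 1.63 ± 0.27 (SE, adjusted p = 0.179) and 1.78 ± 0.49 (SE, adjusted p = 0.358). Of the glucan endo-1,3-beta-glucosidases, Spo01785 fell by 0.71 ± 0.20 (SE, adjusted p = 0.362) and Spo04632 fell by 0.80 ± 0.24 (SE, adjusted p = 0.367). Receptor kinases of the cysteine-rich, wall-associated and lectin types, which sense signals outside the cell, were higher in 17 of 32 and lower in 7. The higher count was 10 to 20 (10 without low N replicate 3) in fits without single libraries. Cysteine-rich kinase 6 (Spo14643) was at 5.65, 9.19 and 5.79 FPKM under high N and 0.92, 0.86 and 0.478 FPKM under low N, a rise of 2.15 ± 0.23 (SE, adjusted p = 0.0679). Kinases 25 (Spo14297) and 29 (Spo14298) rose by 1.62 ± 0.28 (SE, adjusted p = 0.203) and 1.66 ± 0.34 (SE, adjusted p = 0.286), while another kinase 25 gene (Spo28390) fell by 0.96 ± 0.26 (SE, adjusted p = 0.358). An L-type lectin kinase (Spo02036) fell by 0.86 ± 0.18 (SE, adjusted p = 0.288).

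Genes for the synthesis of cellulose, hemicellulose and pectin were mostly lower under high N. Of 50 tested members 30 fell, 3 rose and 17 did not pass, with a median of -0.64. When single libraries were left out, 20 to 34 fell and 0 to 2 (0 without high N replicate 1, 0 without high N replicate 2, 1 without low N replicate 2 and 1 without low N replicate 3) rose. Of these members 19 are known only from leaf lists, and of them 0 rose and 3 fell in root (15.8% called, near the 11.1% of all genes). TRICHOME BIREFRINGENCE-LIKE 38 (Spo01477), of a family that acetylates wall polysaccharides, was at 7.99, 1.39 and 7.37 FPKM under high N and 22.2, 37.1 and 26.3 FPKM under low N, a difference of -2.36 ± 0.51 (SE, adjusted p = 0.293), and Spo01476 fell by 1.33 ± 0.40 (SE, adjusted p = 0.368). IRX15-LIKE (Spo27067), a gene of xylan synthesis in Arabidopsis, was at 1.67, 2.79 and 5.19 FPKM under high N and 12, 13.1 and 10.1 FPKM under low N, a difference of -1.68 ± 0.31 (SE, adjusted p = 0.217). Beta-D-xylosidase 1 (Spo06262), which takes xylose units off wall polymers, belongs to the list of wall loosening genes described next. There it is among the few that rose. It was at 197, 175 and 88.8 FPKM under high N and 72.2, 18.6 and 56.1 FPKM under low N, a rise of 1.75 ± 0.53 (SE, adjusted p = 0.371). In leaf the list for synthesis had a median of -0.70, of the same sign as in root, and the response differed between tissues in 12 of 50.

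Wall loosening enzymes, pectin-modifying enzymes and arabinogalactan proteins fell in 20 of 42 tested members and rose in 4, with a median of -0.66. Leaving out each library gave 12 to 26 (13 without high N replicate 1, 12 without high N replicate 2, 12 without low N replicate 2 and 12 without low N replicate 3) lower and 2 to 5 (2 without high N replicate 1 and 2 without high N replicate 2) higher members. Xyloglucan endotransglucosylases cut and rejoin the xyloglucan that ties cellulose fibrils. The gene Spo23061 was at 1.1, 0.354 and 3.59 FPKM under high N and 5.74, 23.5 and 11.8 FPKM under low N, a difference of -2.44 ± 0.58 (SE, adjusted p = 0.317), and Spo23062 was at 8.6, 3.02 and 9.99 FPKM under high N and 13.9, 55 and 39.1 FPKM under low N, a difference of -2.100 ± 0.57 (SE, adjusted p = 0.358). Low N replicate 2 was the highest of the 6 libraries in both, and high N replicate 2 the lowest. Fasciclin-like arabinogalactan protein 9 (Spo04884) fell by 1.70 ± 0.40 (SE, adjusted p = 0.304) from 58.2, 150.5 and 88.2 FPKM under low N to 31.8, 17.8 and 36.9 FPKM under high N. A pectinesterase/inhibitor gene (Spo24631) rose by 0.57 ± 0.17 (SE, adjusted p = 0.362), with no overlap between the groups.

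FERONIA-type receptor kinases sense the state of the wall and the RALF peptides that the root secretes. Of 8 tested members 5 fell and 0 rose, with a median of -0.59. With each library left out, 2 to 6 (3 without high N replicate 1 and 2 without high N replicate 2) fell. FERONIA (Spo04078) was at 65.3, 59.8 and 79.8 FPKM under high N and 90.6, 122 and 101 FPKM under low N, a difference of -0.60 ± 0.17 (SE, adjusted p = 0.362), and THESEUS 1 (Spo16994) fell by 0.96 ± 0.27 (SE, adjusted p = 0.362). RALF-like 33 (Spo06335), an abundant transcript at 504, 467 and 631 FPKM under high N and 1075, 1058 and 699 FPKM under low N, fell by 0.80 ± 0.25 (SE, adjusted p = 0.379) and missed the threshold without high N replicate 1 (-0.77) and without high N replicate 2 (-0.71). Suberin, wax and lipid transfer genes, which seal outer and inner root layers, were lower in 9 of 15 and higher in 4, the latter 2 to 3 (2 without high N replicate 2, 2 without high N replicate 3, 2 without low N replicate 2 and 2 without low N replicate 3) without single libraries. Lipid-transfer protein 2 (Spo00220) was at 58.6, 40.9 and 67.3 FPKM under high N and 97.6, 245 and 170.2 FPKM under low N, a difference of -1.54 ± 0.35 (SE, adjusted p = 0.303), and 3-ketoacyl-CoA synthase 4 (Spo01316), which lengthens fatty acids, fell by 1.26 ± 0.40 (SE, adjusted p = 0.383). CASP-like Ni6 (Spo18520), named for the proteins of the Casparian strip, rose by 1.17 ± 0.27 (SE, adjusted p = 0.302) from 236, 127 and 155 FPKM to 341, 336 and 470.4 FPKM.

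Hormone lists differed in direction. Auxin genes fell in 12 of 20 tested members and rose in 2, with a median of -0.80. When single libraries were left out, 8 to 14 fell. SAUR32 (Spo01156), of the early auxin-induced small proteins, was at 53.3, 54.6 and 110.2 FPKM under high N and 126, 167 and 161 FPKM under low N, a difference of -1.12 ± 0.30 (SE, adjusted p = 0.355). SAUR40 (Spo04957) fell by 1.12 ± 0.33 (SE, adjusted p = 0.362). PIN-LIKES 5 (Spo03045), which holds auxin in the endoplasmic reticulum, rose by 0.96 ± 0.22 (SE, adjusted p = 0.302). Gibberellin genes had the lowest median of all lists, -1.04, with 5 of 8 lower and 0 higher, and 4 to 6 lower with each library left out. Gibberellin-regulated protein 10 (Spo07806), a small cysteine-rich peptide, was at 4.34, 1.22 and 8.33 FPKM under high N and 13.7, 38.2 and 25.2 FPKM under low N, a difference of -2.37 ± 0.57 (SE, adjusted p = 0.317). Gibberellin-regulated protein 11 (Spo15459) fell by 1.09 ± 0.31 (SE, adjusted p = 0.362) and ent-kaurenoic acid oxidase 1 (Spo00018), an enzyme of gibberellin synthesis, fell by 0.54 ± 0.16 (SE, adjusted p = 0.366).

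Abscisic acid genes fell in 6 of 10 tested members and rose in 0, with 2 to 4 (2 without high N replicate 1, 3 without high N replicate 2, 3 without low N replicate 1, 2 without low N replicate 2 and 3 without low N replicate 3) lower when each library was left out. MARD1 (Spo13019), which responds to abscisic acid in Arabidopsis, was at 3.74, 3.93 and 18.2 FPKM under high N and 21.1, 35.3 and 37.1 FPKM under low N, a difference of -2.03 ± 0.56 (SE, adjusted p = 0.358). Cytokinin genes had more members up, 5 of 9, against 2 down, and a median of 0.71. LOG-type phosphoribohydrolase Spo11775, which frees active cytokinin, was at 12.2, 9.12 and 6.63 FPKM under high N and 4.85, 2.41 and 4.02 FPKM under low N, a rise of 1.12 ± 0.28 (SE, adjusted p = 0.33). The phosphotransfer protein HPT3 (Spo17957) was at 2.68, 3.11 and 3.04 FPKM under high N and 0.738, 0.568 and 0.379 FPKM under low N, a rise of 1.34 ± 0.18 (SE, adjusted p = 0.111), and the response regulator ARR9 (Spo03833), of the class that cytokinin induces and that damps its signal, rose by 0.94 ± 0.20 (SE, adjusted p = 0.293). The response regulator ARR12 (Spo14004), of the class that activates cytokinin targets, fell by 0.65 ± 0.18 (SE, adjusted p = 0.362), and zeatin O-glucosyltransferase (Spo01440), which stores zeatin as a conjugate, fell by 1.01 ± 0.23 (SE, adjusted p = 0.303). Ethylene genes, mostly homologs of ACC oxidase, rose in 4 of 9 and fell in 1. The homolog Spo03784 rose by 1.32 ± 0.29 (SE, adjusted p = 0.293). ACC oxidase 5 itself (Spo21556), the last step of ethylene synthesis, fell by 0.98 ± 0.35 (SE, adjusted p = 0.414) and missed the threshold without high N replicate 2 (-0.62) and without low N replicate 2 (-0.74).

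Heat shock proteins and heat stress factors were lower under high N in 12 of 20 tested members and higher in 0, with a median of -0.75 in root and -0.94 in leaf. With each library left out, 10 to 14 fell. A small chloroplast heat shock protein (Spo12147) was at 1.41, 1.23 and 1.38 FPKM under high N and 9.04, 6.28 and 3.92 FPKM under low N, a difference of -1.60 ± 0.27 (SE, adjusted p = 0.179), and a class II small heat shock protein (Spo19421) was at 2.46, 2.51 and 5.17 FPKM under high N and 16.9, 9.88 and 5.83 FPKM under low N, a difference of -1.38 ± 0.39 (SE, adjusted p = 0.362). Low N replicate 1 was the highest library in both. Heat stress factor C-1 (Spo13070) fell by 1.27 ± 0.33 (SE, adjusted p = 0.348). The response differed between tissues at an interaction p below 0.05 in 2 of 20 members.

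Carbon genes did not share a direction. Starch, sucrose and trehalose genes were higher in 5 of 20 tested members and lower in 4. Fits without single libraries gave 1 to 7 (2 without high N replicate 1, 1 without high N replicate 2, 2 without low N replicate 2 and 2 without low N replicate 3) higher and 0 to 6 (2 without high N replicate 1, 0 without high N replicate 2, 1 without low N replicate 2 and 0 without low N replicate 3) lower. Beta-amylase 3 (Spo09720), which breaks down starch in plastids, was at 42.7, 104 and 41.6 FPKM under high N and 13.4, 12.1 and 24.5 FPKM under low N, a rise of 1.78 ± 0.41 (SE, adjusted p = 0.303). Sugar transporters were higher in 3 of 11, a count of 1 to 5 (1 without high N replicate 1, 1 without high N replicate 2, 5 without high N replicate 3, 1 without low N replicate 2 and 1 without low N replicate 3) without single libraries, and lower in 2, and their median of -0.07 was 0.16 with array weights and 0.06 without low N replicate 2. SWEET7 (Spo11590), of a family that lets sugars pass both ways, was at 451, 438 and 423 FPKM under high N and 308, 171 and 169 FPKM under low N, a rise of 1.07 ± 0.26 (SE, adjusted p = 0.317). Monosaccharide-sensing protein 2 (Spo07238), a vacuolar sugar carrier, was at 16.4, 16.1 and 39.7 FPKM under high N and 42.8, 58.2 and 56.1 FPKM under low N, a difference of -1.20 ± 0.35 (SE, adjusted p = 0.362). Glyoxylate cycle and gluconeogenesis genes, which turn acetyl-CoA into sugar precursors, rose in 4 of 5 and fell in 0, with 2 to 4 (2 without high N replicate 2) higher without single libraries. Cytosolic fructose-1,6-bisphosphatase (Spo19523) rose by 0.93 ± 0.27 (SE, adjusted p = 0.362).

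The photosynthesis markers that passed the filter, fixed as markers of leaf cells, mostly moved with these rises. Of 12 members 7 passed the filter, and of these 6 rose and 0 fell, with a median of 0.96. Below the filter, photosystem I subunit V (Spo03847) went the other way, at 0 to 0.604 FPKM under high N and 0.887 to 2.07 FPKM under low N. The number that rose was 3 to 6 (3 without high N replicate 2 and 3 without low N replicate 2) without single libraries. TL20.3, which was higher in root than in leaf, is counted among the 12. Protochlorophyllide reductase (Spo19511), an enzyme of chlorophyll synthesis, was at 20.2, 23 and 10.4 FPKM under high N and 9.73, 6.31 and 7.62 FPKM under low N, a rise of 1.03 ± 0.30 (SE, adjusted p = 0.364). The summed levels of the 12 overlapped between the N groups, but carbonic anhydrase made up most of that sum. Of the 7 that passed the filter, 5 had groups that did not overlap, all higher under high N. OHP1 (Spo22082), for example, was at 12.9 to 49.4 FPKM under high N and 4.88 to 12.4 FPKM under low N. Carbonic anhydrase and photosystem I subunit XI (Spo25087) overlapped. The chlorophyll a-b binding proteins were at or near 0 in both groups. The part of the 12 markers in the other rises was not tested. In bulk root tissue a change in the number of cells of a type and a change in RNA per cell cannot be told apart.

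Transcription factors formed the longest list, with 34 of 71 tested members lower, 15 higher, and a median of -0.51. When single libraries were left out, 19 to 31 (20 without high N replicate 1, 19 without high N replicate 2, 22 without low N replicate 2 and 22 without low N replicate 3) were lower and 9 to 19 (9 without high N replicate 1 and 9 without high N replicate 2) were higher. Of its tested members 21 come from leaf lists alone, and of them 0 rose and 3 fell (14.3% called, near the 11.1% of all genes). Beside the NAC genes, ethylene-responsive factor 5 (Spo11939) was at 43.4, 53.3 and 61 FPKM under high N and 27.3, 25 and 13.8 FPKM under low N, a rise of 1.26 ± 0.27 (SE, adjusted p = 0.293). A bHLH25 gene (Spo00438) was at 0.32, 0.611 and 0.756 FPKM under high N and 6.02, 2.82 and 2.06 FPKM under low N, a difference of -1.49 ± 0.33 (SE, adjusted p = 0.294). A further bHLH25 gene (Spo19675) fell by 1.81 ± 0.59 (SE, adjusted p = 0.388) but missed the threshold without high N replicate 1 (-1.34) and without low N replicate 1 (-1.33). Outside the lists, the rule for the largest changes named 4 genes. BONZAI 3 (Spo23994), a copine known in Arabidopsis as a repressor of cell death, was at 87.6, 67.3 and 24 FPKM under high N and 12.1, 5.71 and 2.19 FPKM under low N, a rise of 3.03 ± 0.63 (SE, adjusted p = 0.288). The jasmonate-induced protein homolog Spo11622 was at 64.7, 19 and 8.87 FPKM under high N and 2.79, 2.75 and 0.897 FPKM under low N, a rise of 2.97 ± 0.67 (SE, adjusted p = 0.294). A MAP kinase kinase kinase (Spo08276) was at 2.43, 4.15 and 8.43 FPKM under high N and 55.3, 33.1 and 14.8 FPKM under low N, a difference of -2.504 ± 0.53 (SE, adjusted p = 0.293), and the ankyrin repeat protein BDA1 (Spo04492), linked to immunity in Arabidopsis, was at 0.933, 0.905 and 5.13 FPKM under high N and 11, 12.2 and 13.6 FPKM under low N, a difference of -2.23 ± 0.45 (SE, adjusted p = 0.274).

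**Figure D4:**
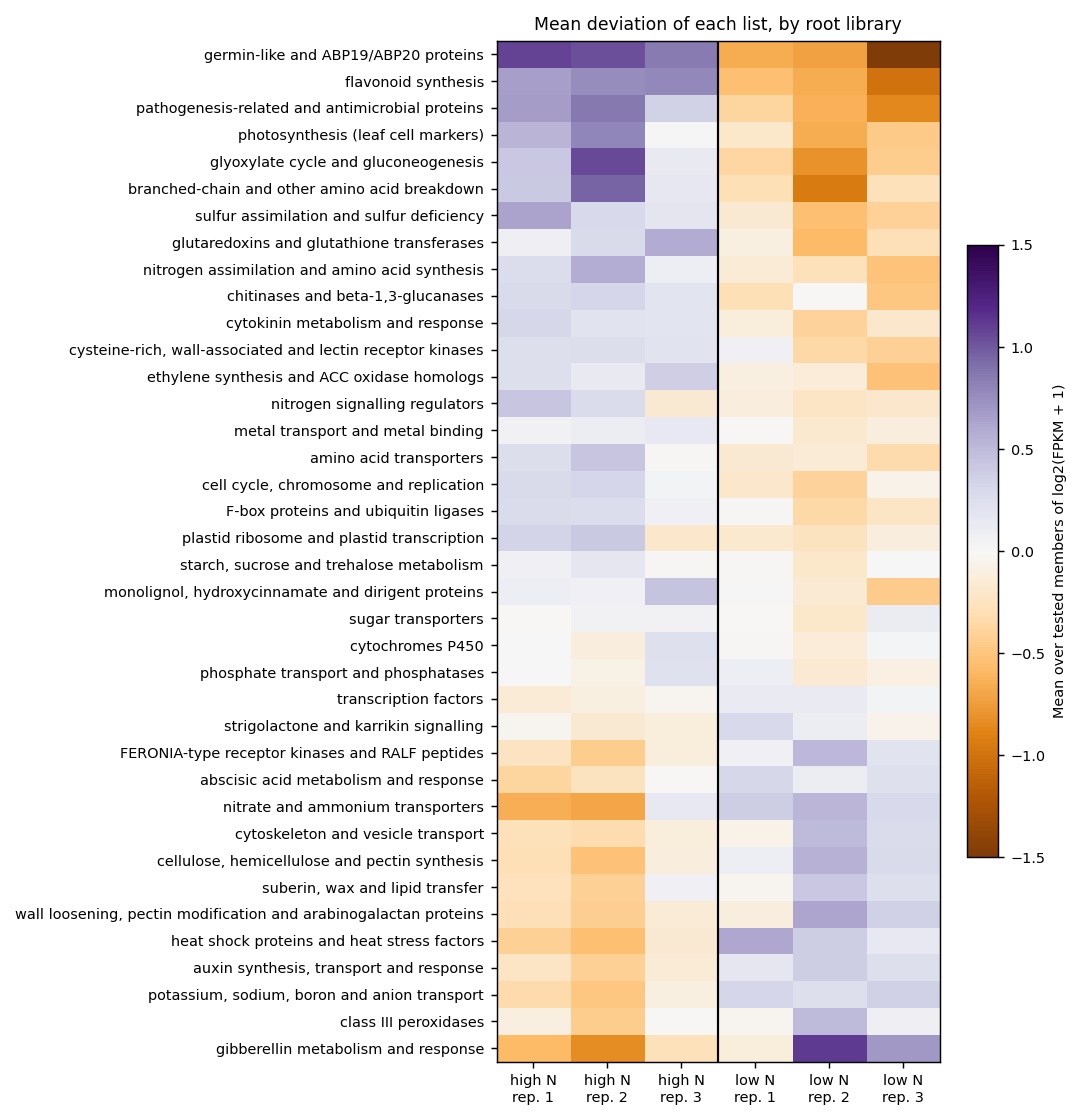
Each cell is the mean over a list's tested members of log2(FPKM + 1) minus the gene's mean over 6 root libraries, with purple above and orange below that mean. Germin-like and flavonoid genes are purple in all 3 high N columns, and nitrate and ammonium transporters are orange in high N replicates 1 and 2 alone.

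The list means by library show how evenly the plants shared the response. For germin-like and flavonoid genes all 3 high N libraries were above and all 3 low N libraries below the mean. For nitrate and ammonium transporters high N replicate 3 lay on the side of the low N libraries. Heat shock genes were highest in low N replicate 1, while wall and gibberellin genes were highest in low N replicate 2.

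The response of the listed genes in root was set beside that in leaf through the interaction of tissue and N, fitted over all 12 libraries. It had p below 0.05 in 1242 of 18411 genes (6.75%). This fit took the libraries as independent, though leaf and root of the same number may share a plant. With them paired, limma gave 1477 genes, and the counts that follow are without pairing. Of the 527 listed genes tested in both tissues 127 passed, and in 95 of these the signs were opposite, in 32 the same. The remaining 400 did not pass, which does not show that they responded alike. The members were chosen for a response in root or leaf, so these counts describe them and are not set against chance. Root and leaf differed at an adjusted p below 0.05 in 15 named genes, whose values are given among the additional observations. In peroxidase 2, for example, leaf values were 0.604, 1.21 and 1.61 FPKM under high N and 1.94, 0.739 and 2.73 FPKM under low N, and the root difference exceeded the leaf difference by 3.13 ± 0.42 (SE, adjusted p = 0.0249).

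**Figure D5:**
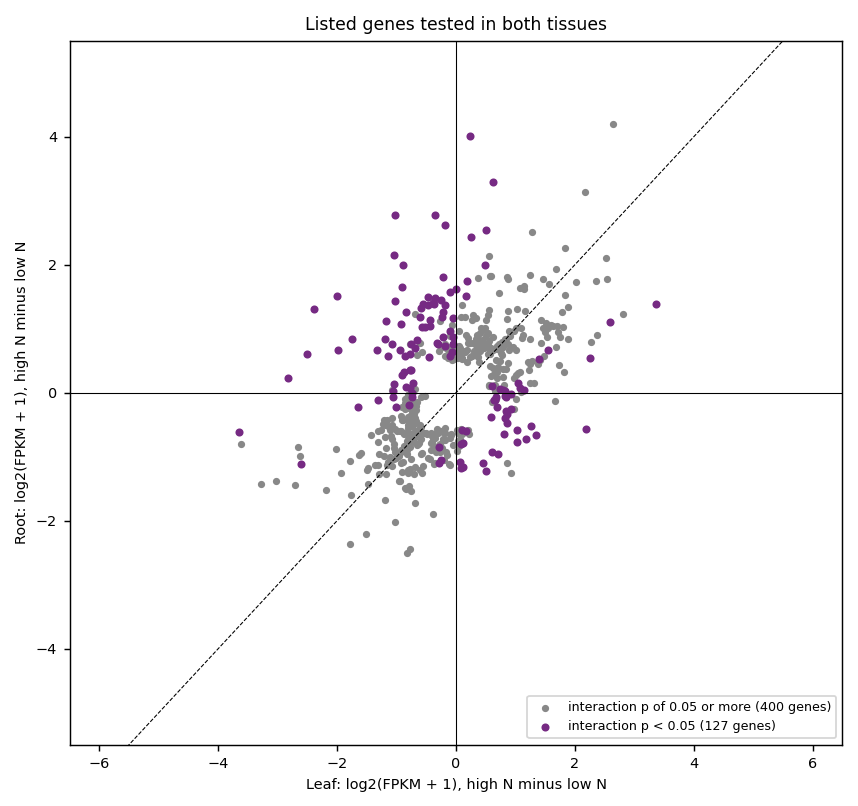
The log2 difference between high N and low N in root (vertical axis) is plotted against that in leaf (horizontal axis) for 527 listed genes, with 127 genes at an interaction p below 0.05 in purple and the diagonal dashed. The space near the origin is thin because the genes were chosen for a response in one of the tissues.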

How the data were processed

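Root libraries of 3 plants per treatment were compared by library name. After read trimming and alignment to the spinach genome, the authors counted fragments per gene and deposited FPKM without scaling between libraries. The paper names TopHat, Bowtie and HTSeq, whereas the submitters' processing notes list fastp, HISAT2 2.1.0, featureCounts and DESeq2, and which of them made the deposited values is not settled. The table held 0 other per-sample columns. FPKM values were transformed as log2(FPKM + 1), those genes whose mean over the 6 root libraries reached 1 FPKM were kept, and high N was compared with low N in limma 3.58.1 (R 4.3.3) with a variance trend, at an unadjusted p below 0.05, the threshold of the study, and after Benjamini-Hochberg adjustment over all tested genes. The pseudocount of 1 understates the change of low genes. Log2 differences are high N minus low N. The interaction of tissue and N was fitted over 12 libraries. Fragments were worked back from FPKM for 23015 genes, and 2480 genes were 0 throughout.

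Gene names came from the study's lists, since 0 identifiers matched the RefSeq table. The authors' fold changes and p-values were not used. The members and lists were chosen with earlier results of these data known. Named genes are, in each list, up to 3 largest rises and 3 largest falls at p below 0.05 without overlap between groups, up to 2 in each direction among members known only from leaf, the 10 largest rises and falls of all named genes, and all genes at an adjusted p below 0.05. Not all are printed. The fit was tested on simulated data. Alternatives were a pseudocount of 0.1, a minimum mean FPKM of 5 or none, median-of-ratios and quantile scaling, a fit over all 4 groups, array weights, no variance trend, a replicate block, voom on the fragments and each library left out in turn. Other steps ran in Python 3.11.15 with NumPy 2.4.6, pandas 2.3.3 and matplotlib 3.10.9.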

Additional observations from a re-analysis of the deposited data

Results flagged for a closer look

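Root and leaf differed in their response to N at a Benjamini-Hochberg adjusted interaction p below 0.05 (limma over all 12 libraries) in 15 of the named genes. Every value below is the log2 difference between high N and low N in root minus that in leaf, and all of them were positive. Because these genes were named for a difference in root, the sign follows in part from the choice.

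In the flavonoid and phenylpropanoid genes the excess of root over leaf was 3.80 for chalcone isomerase (Spo18570), 2.40 for chalcone synthase 2 (Spo25740) and 2.40 for a further chalcone synthase (Spo27151). It was 2.05 for the cinnamoyl-CoA reductase-like gene (Spo23280) and 2.02 for the caffeoyl-CoA O-methyltransferase (Spo23090). Chalcone isomerase was at 5.23, 6.24 and 7.89 FPKM under high N and 9.32, 12.5 and 23.1 FPKM under low N in leaf, the reverse of its order in root.

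Among germin-like, peroxidase and receptor kinase genes it was 3.72 for ABP20 (Spo10209), 3.11 for ABP19a (Spo28140), 3.13 for peroxidase 2 (Spo07360), 2.81 for peroxidase 5 (Spo07361) and 2.15 for cysteine-rich kinase 6 (Spo14643). The remaining genes were SULFUR DEFICIENCY-INDUCED 1 (Spo04503) at 2.56, the SKIP23 genes Spo04843 at 2.31 and Spo04844 at 2.22, ATL11 (Spo19365) at 2.36 and the pectinesterase/inhibitor gene (Spo24631) at 1.71.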

How the results depend on the processing

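The 1993 root genes at p below 0.05 became 4208 with array weights, and 977 to 3110 when single libraries were left out. The 5 genes at an adjusted p below 0.05 became 95 with all 4 groups in one fit, 66 with array weights, 2 with voom on recovered fragments, and 0 with no filter on low values, where limma called 2295 at p below 0.05. Without single libraries they were 0 to 18. A replicate block, with the number as a factor, gave 1991 limma calls, 1538 of them shared with the fit without it, and 0 at an adjusted p below 0.05. Deviations of same-numbered libraries correlated at 0.098, -0.024 and 0.097, and those of differently numbered libraries across the groups at -0.129 to 0.054. So few values cannot tell whether the replicate numbers pair the plants. Every called gene still tested kept its sign under each alternative, which follows in part from its choice at p below 0.05 in limma. The share of calls that were higher was 52.6% after scaling by median of ratios, 51.5% after quantile normalization and 50.1% without high N replicate 2, the highest of a range from 36.4% when single libraries were left out. The median difference over all genes was -0.0048 and -0.0042 with these scalings. List medians that changed sign were N signalling (-0.074 with a mean FPKM of at least 5 and with no filter), phosphate (0.042 without high N replicate 2, 0.050 without low N replicate 3), monolignol (-0.15 with a mean FPKM of at least 5, -0.037 without high N replicate 3, -0.003 without low N replicate 3, -0.037 to 0.353 over all single libraries), strigolactone (0.86 with a mean FPKM of at least 5), sugar transporters (0.16 with array weights, 0.057 without low N replicate 2) and cytochromes P450 (0.64 with a mean FPKM of at least 5, -0.253 to 0.13 without single libraries, above 0 without high N replicates 1 and 2 and low N replicate 3). The cause of these changes was not tested. For named genes 2743 alternative values kept their side of the threshold, 278 lost it and 0 reversed. The interaction count of 1242 ranged from 899 to 1632. With 3 plants per group and a median SE of 0.24, small differences were not detectable, and names cover 48.5% of the calls.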

Other observations

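Genes for the cell cycle, chromosomes and DNA replication were higher in high N roots in 7 of 13 tested members and lower in 1, with a median log2 difference of 0.55. With each library left out, 2 to 7 (2 without high N replicate 1 and 3 without high N replicate 2) rose. MCM3 (Spo02138), part of the helicase that opens DNA for replication, was at 2.86, 3.71 and 5.47 FPKM under high N and 0.716, 0.919 and 2.1 FPKM under low N, a rise of 1.18 ± 0.30 (SE, adjusted p = 0.339). SMC5 (Spo14506), of a complex that holds chromosomes for repair, rose by 0.77 ± 0.17 (SE, adjusted p = 0.293). Against these, cytoskeleton and vesicle transport genes fell in 9 of 13, a count of 5 to 10 (5 without high N replicate 2) without single libraries, and rose in 2. Formin-like protein 6 (Spo18836), of a family that nucleates actin filaments, was at 5.24, 5.5 and 8.95 FPKM under high N and 11.3, 21.4 and 18.8 FPKM under low N, a difference of -1.25 ± 0.28 (SE, adjusted p = 0.294). The kinesin KIN-14P (Spo10400), a microtubule motor, rose by 0.62 ± 0.14 (SE, adjusted p = 0.294).

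Glutaredoxins and glutathione transferases, which handle oxidants and foreign compounds through glutathione, rose in 7 of 8 tested members and fell in 1, with a median of 0.86 and 3 to 7 (4 without high N replicate 1, 4 without high N replicate 2, 3 without low N replicate 2 and 4 without low N replicate 3) higher with each library left out. A pair with adjoining numbers differed in level. Spo00983 was at 1117, 1113 and 1395 FPKM under high N and 727, 463 and 582 FPKM under low N, a rise of 1.05 ± 0.24 (SE, adjusted p = 0.303), and Spo00984 was at 16.5, 42.1 and 36.1 FPKM under high N and 7.28, 5.08 and 2.86 FPKM under low N, a rise of 2.39 ± 0.41 (SE, adjusted p = 0.188). F-box proteins and ubiquitin ligases, which mark proteins for breakdown, rose in 27 of 63 and fell in 13. Fits without single libraries gave 14 to 31 (16 without high N replicate 1, 14 without high N replicate 2 and 17 without low N replicate 2) higher and 7 to 13 (8 without high N replicate 1 and 7 without low N replicate 3) lower. The SKIP23 gene Spo04843 was at 21.5, 28.7 and 31.6 FPKM under high N and 5.43, 6.19 and 2.93 FPKM under low N, a rise of 2.30 ± 0.26 (SE, adjusted p = 0.0839), and Spo04844, of the same name, rose by 1.98 ± 0.25 (SE, adjusted p = 0.0914). RING-H2 finger protein ATL47 (Spo04142) fell by 1.03 ± 0.25 (SE, adjusted p = 0.317), and the ligase MPSR1 (Spo10685) fell by 1.16 ± 0.29 (SE, adjusted p = 0.33). Cytochromes P450 had no shared direction, with 9 of 20 higher, a count of 5 to 8 (5 without high N replicate 1 and 5 without high N replicate 3) without single libraries, and 7 lower, the latter 4 to 7 (4 without high N replicate 2). CYP72A219 (Spo16626) rose by 1.41 ± 0.36 (SE, adjusted p = 0.347), while another P450 gene (Spo00740) fell by 1.02 ± 0.29 (SE, adjusted p = 0.362).

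Plastid ribosome and plastid transcription genes rose in 4 of 6 tested members and fell in 1. The number that rose was 0 to 5 (1 without high N replicate 1, 0 without high N replicate 2, 2 without low N replicate 1, 1 without low N replicate 2 and 2 without low N replicate 3) without single libraries. The member that fell, PLASTID TRANSCRIPTIONALLY ACTIVE 16 (Spo09222), was at 4.23, 2.85 and 3.16 FPKM under high N and 6.03, 7.47 and 7.31 FPKM under low N, a difference of -0.85 ± 0.18 (SE, adjusted p = 0.288). Of 3 strigolactone and karrikin genes 1 rose and 2 fell. The strigolactone receptor D14 (Spo02140) was at 2.63, 2.42 and 4.07 FPKM under high N and 8.87, 5.52 and 6.26 FPKM under low N, a difference of -0.96 ± 0.23 (SE, adjusted p = 0.317). Among 4 tested regulators of N signalling 1 rose and 1 fell.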
